A study of Bos taurus with 6 samples.

Results

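The nuclear genes for subunits of the 5 respiratory chain complexes were followed in bovine granulosa cells on 2-colour expression arrays. Members were all probes whose platform gene symbol named a subunit of NADH dehydrogenase (complex I, NDUFA, NDUFB, NDUFC, NDUFS and NDUFV symbols), succinate dehydrogenase (complex II, SDH), the cytochrome bc1 complex (complex III, UQCR and CYC1), cytochrome c oxidase (complex IV, COX) or ATP synthase (complex V, ATP5). The rule used symbols only and no measured value, though it was set with earlier results of these data known. It gave 79 genes out of 15216 named genes on the array, represented by 124 probes: 37 genes of complex I, 4 of complex II, 8 of complex III, 14 of complex IV and 16 of complex V. Older ATP5 and UQCR symbols were brought up to date for 17 of them. UQCRFS1 was not analysed here, and genes of the mitochondrial genome lay outside the symbol rule and were not looked at.

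The study compared granulosa cells of 3 cows given cetrotide, an antagonist of the gonadotropin-releasing hormone receptor that suppresses pituitary LH release, with cells of 3 control cows. Animals of both groups were multiparous Holstein cows whose ovaries were stimulated with gonadotropins and then coasted, which means that FSH was withdrawn, and cells were aspirated from pre-ovulatory follicles 68 hours after the final FSH dose. Each array carried labelled RNA of both treatments, with 3 areas on each of 2 slides: on slide 1 Cy5 marked the cetrotide RNA, and on slide 2 Cy3 did. The labels give no dose, age or animal for an array, so which cow was hybridised to which area is unknown. The arrays of the same area on the 2 slides were averaged as 1 dye-swap replicate, leaving n = 3, and every ratio below is log2 of cetrotide over control.

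The respiratory chain sits in the inner mitochondrial membrane. Complexes I and II feed electrons from NADH and succinate into ubiquinone, complex III passes them to cytochrome c and complex IV to oxygen, and the proton gradient that complexes I, III and IV build drives ATP synthase. All complexes except II also contain subunits encoded by mitochondrial DNA. In granulosa cells mitochondria also carry out the first step of steroid synthesis, the cleavage of the cholesterol side chain by CYP11A1.

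Median spot intensity per array and RNA ran from 107 to 313, and 53.5% to 82.5% of gene probes lay above a background limit, the 95% point of the array's own negative controls in the same channel. A probe was kept if its cetrotide RNA or its control RNA passed the limit on at least 4 of the 6 arrays, and 120 of 124 subunit probes (96.8%) passed against 72.5% of all gene probes. This left 77 of 79 subunits. At the bright end, mean spot intensities piled up between 30000 and the highest value of each array and channel, 36100 to 54500, and ratios of such spots may be too small. Of the 77 subunits 6 passed 30000 for either RNA on at least 1 array: ATP5F1A, ATP5F1C, ATP5MC1, COX5A, COX5B and NDUFS4. COX6A2, the heart and muscle isoform of subunit 6A, was above the limit on 0 arrays of either RNA, and COX6B2, the testis isoform of subunit 6B, on 1 array in cetrotide RNA and on 2 in control RNA. Of 17 granulosa cell markers 16 were measured, and the exception, FOXL2, was above the limit on 2 arrays in cetrotide RNA and on 0 in control RNA. Values for markers of other cell types, which also moved between the groups, stand beside the replicate comparison below.

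No subunit passed an adjusted p of 0.05 in limma (Benjamini-Hochberg over all 27429 tests), where the lowest adjusted p of a subunit was 0.178, and 0 of all tests passed. At an unadjusted p under 0.05, 16 of 77 subunits (20.8%) were lower in cetrotide cells, where 6.46% of all tests were, and 7 (9.09%) were higher, where 8.00% of all tests were. The share of higher subunits was thus near that of the whole array. The median log2 ratio of the subunits was -0.08, with quartiles of -0.39 and 0.20, against -0.01 over all tests, and 45 were below 0 and 32 above, where 53.2% of all tests were below 0. On all 6 arrays 13 subunits were below 0, where 7.41% of all tests were, and 4 were above 0, where 7.86% were. With both dye orientations fitted as 6 arrays, a dye term and the area as a random block, 6 subunits passed an adjusted p of 0.05 in limma, against 2.46% of all tests. NDUFV2, NDUFA5, COX6C, NDUFB3 and ATP5PF were lower in that fit and SDHB was higher. That fit takes the dye-swap arrays of an area as partly separate, with 1 consensus correlation (0.852) for all tests. Its added calls thus draw on arrays taken here as technical repeats.

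Subunit transcripts gave brighter spots than most probes, and bright spots were called more often. Among tests with a mean log2 intensity over 10, 12.2% had an unadjusted p under 0.05 and a lower level in cetrotide cells, and 11.5% a higher one. Of the 60 subunits above the same intensity 15 (25%) were lower and 4 (6.67%) higher. Of these 60, 38 were below 0, where 50.4% of such tests were. On all 6 arrays 12 of them were below 0, where 13.6% of bright tests were, and 3 above, where 11.6% were. Their median was -0.18 against -0.01 for all such tests. In bulk RNA of this kind, fewer cells of a type and less RNA per cell cannot be told apart.

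**Figure D1:**
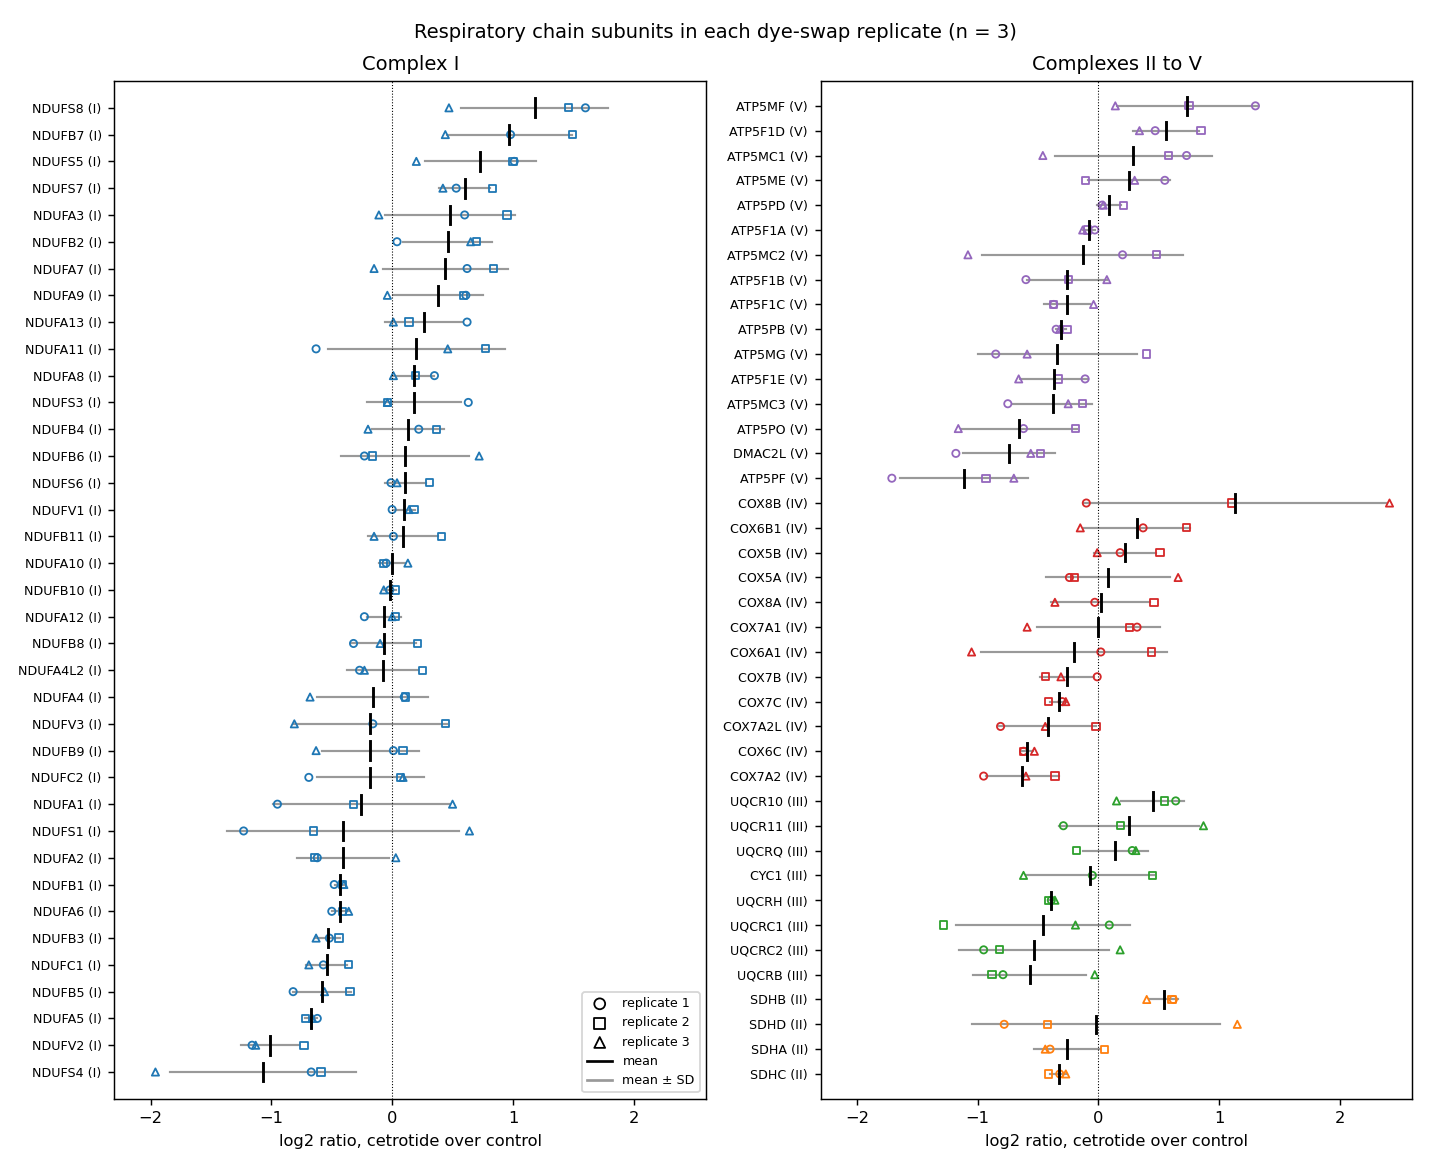
Log2 ratio of cetrotide over control (horizontal axis) for each of the 77 measured subunits, with complex I on the left and complexes II to V on the right; open symbols are the 3 dye-swap replicates, the vertical tick is their mean and the grey bar the mean ± SD. Within each complex some subunits lie below and others above 0, from -1.11 for ATP5PF to 1.18 for NDUFS8.

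Complex I, which has a peripheral arm in the matrix where NADH is oxidised and a membrane arm that pumps protons, held the most members. Of its 37 subunits 19 (51.4%) were below 0, where 53.2% of all tests were, and 18 above. The median log2 ratio was -0.02. At an unadjusted p under 0.05, 8 (21.6%) were lower and 4 (10.8%) higher. Over all tests 6.46% were lower and 8.00% higher, and among bright tests 12.2% and 11.5%. The share of higher subunits was thus near that of the array. Both directions occurred in each arm when subunits were sorted by position in the enzyme, a sorting made after the values were seen. The peripheral arm had 4 lower (26.7%) and 2 higher (13.3%) of 15, and the membrane arm 4 (20%) and 2 (10%) of 20.

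NDUFA5, an accessory subunit of the peripheral arm, had log2 ratios of -0.35, -0.34 and -0.35 on slide 1 and -0.89, -1.10 and -0.97 on slide 2. All 6 arrays were below 0, and the slides did not overlap. Its mean was -0.67 ± 0.05 (SD, n = 3), 63.0% of the control level, with an adjusted p of 0.178 in limma. NDUFV2, which binds an iron-sulphur cluster beside the NADH site, had ratios of -1.37, -0.90 and -1.29 on slide 1 and -0.95, -0.56 and -0.96 on slide 2. Every array was again below 0, with area 2 the least so on both slides. The mean was -1.01 ± 0.24, or 49.8% of control (adjusted p = 0.178 in limma).

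NDUFB3 and NDUFB1 are small accessory subunits of the membrane arm, and both were below 0 on every array. NDUFB3 ranged from -0.72 to -0.33, with a mean of -0.53 ± 0.10 (adjusted p = 0.179 in limma). NDUFB1 had the narrowest range of any complex I subunit named here, -0.54 to -0.38, with a mean of -0.43 ± 0.04 (adjusted p = 0.183 in limma). NDUFA6, an accessory subunit of the peripheral arm, lay close to it at -0.43 ± 0.07.

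NDUFS4, an accessory subunit of the peripheral arm whose loss destabilises the NADH-binding part of the enzyme, was at 47.6% of control. Its replicates were -0.67, -0.59 and -1.96. The value of replicate 3 was far below the others on both slides, at -1.70 and -2.22, and set the mean of -1.07 and its SD of 0.77 (adjusted p = 0.333 in limma). Its control RNA passed an intensity of 30000 on 4 arrays. The other subunits lower at an unadjusted p under 0.05 were NDUFC1 at -0.54 ± 0.17 and NDUFB5 at -0.58 ± 0.24, both of the membrane arm. They differed by slide in opposite ways, with slide means of -0.95 and -0.13 for NDUFC1 and of -0.18 and -0.97 for NDUFB5.

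In the same enzyme, NDUFS8, an iron-sulphur subunit on the path to ubiquinone, had the highest ratio of all 77 subunits. Its arrays read 1.44, 1.13 and 0.15 on slide 1 and 1.75, 1.78 and 0.80 on slide 2. All 6 were above 0, lowest in area 3 on both slides, and the mean was 1.18 ± 0.61, 226% of control (adjusted p = 0.255 in limma). NDUFS5, a membrane-arm subunit on the intermembrane-space side, was also above 0 on all arrays, with replicates of 1.01, 1.00 and 0.20. NDUFB7, its neighbour on that side, had replicates of 0.98, 1.49 and 0.44.

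NDUFS7, which carries the last iron-sulphur cluster before ubiquinone, was the least even between slides of the subunits called at this p. On slide 1 its ratios were -0.08, 0.01 and -0.31, and on slide 2 they were 1.14, 1.65 and 1.16. Its mean of 0.60 ± 0.21 therefore averages slide means of -0.13 and 1.32. The small SD covers only the spread between areas.

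None of the other core subunits of the peripheral arm passed an unadjusted p of 0.05. NDUFS1, the largest of them, had replicates of -1.23, -0.65 and 0.64, with the sign turned in replicate 3. NDUFS3, which helps to form the ubiquinone pocket, had a mean of 0.18 ± 0.39, and NDUFV1, which binds FMN and NADH, had 0.10 ± 0.09. NDUFA4, grouped here by its symbol although the protein is now assigned to complex IV, had -0.16 ± 0.46. Its paralogue NDUFA4L2, which is induced by hypoxia in several cell types, had -0.08 ± 0.29 and was above the limit on only 3 arrays in cetrotide RNA and 4 in control RNA.

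Complex II has 4 subunits, all nuclear, and they did not share a direction. SDHB, the iron-sulphur subunit, had ratios of 0.39, 0.33 and 0.14 on slide 1 and 0.84, 0.89 and 0.66 on slide 2. All were above 0 and slide 2 was higher in each area. The mean was 0.54 ± 0.12, 146% of control (adjusted p = 0.186 in limma). SDHC, one of the membrane anchors that hold the haem, had ratios of -0.28, -0.31 and -0.19 on slide 1 and -0.35, -0.51 and -0.35 on slide 2. All were below 0, and the mean was -0.33 ± 0.07, 79.5% of control (adjusted p = 0.226 in limma). The second probe of each gene gave nearly the same mean, 0.58 for SDHB and -0.31 for SDHC. SDHA, the flavoprotein that oxidises succinate, had replicates of -0.40, 0.05 and -0.44. SDHD, the other anchor, had -0.78, -0.42 and 1.15, so that its mean of -0.02 came from replicates of opposite sign.

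Complex III had 5 subunits (62.5%) below 0 and 3 above. At an unadjusted p under 0.05 it had 1 lower and 1 higher (12.5% each), where 6.46% and 8.00% of all tests were. UQCRH, the hinge protein that links cytochrome c1 with cytochrome c, had replicates of -0.39, -0.41 and -0.36. All 6 arrays were below 0, from -0.65 to -0.12, and the mean was -0.39 ± 0.02 (adjusted p = 0.192 in limma). Its spots were dim, with a mean log2 intensity of 7.46. UQCR10, a small subunit beside cytochrome c1, had 0.64, 0.55 and 0.15, with a mean of 0.45 ± 0.26 (adjusted p = 0.303 in limma).

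UQCRB, which lies near the ubiquinone site, and UQCRC2, a core protein, had similar replicate patterns. UQCRB had -0.79, -0.88 and -0.03, and UQCRC2 had -0.95, -0.82 and 0.18. In both, replicate 3 was close to 0 and away from the others, and neither passed an unadjusted p of 0.05. UQCRC1, the other core protein, had a mean of -0.46 ± 0.72 that rested on 1 array: area 2 of slide 2 read -3.04 while the same area of slide 1 read 0.48. A second UQCRC1 probe had a mean of 0.31, but its spots were dim, with a mean log2 intensity of 6.95. That probe was kept through cetrotide RNA only, above the limit on 6 arrays against 3 in control RNA, so its mean is no support. CYC1, cytochrome c1 itself, had replicates of -0.05, 0.45 and -0.62.

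Complex IV had 7 subunits (58.3%) below 0 and 5 above among the 12 measured. At an unadjusted p under 0.05 it had 3 lower (25%) and 0 higher, where 6.46% and 8.00% of all tests were. All 3 are small nuclear subunits around the catalytic core. COX6C had ratios of -0.81, -0.73 and -0.64 on slide 1 and -0.43, -0.51 and -0.42 on slide 2. All arrays were below 0, and the mean was -0.59 ± 0.05, 66.5% of control (adjusted p = 0.178 in limma). COX7A2, the isoform of subunit 7A found outside heart and muscle, had -1.01, -0.42 and -0.71 on slide 1 and -0.89, -0.29 and -0.49 on slide 2. The order of the areas was the same on both slides, the mean was -0.63 ± 0.30 (adjusted p = 0.246 in limma), and a second probe gave -0.62. COX7C had replicates of -0.30, -0.41 and -0.27 (adjusted p = 0.228 in limma). Its difference lay on slide 1, where the mean was -0.61, and was -0.05 on slide 2.

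COX7A2L, which helps to join complexes III and IV into supercomplexes, had -0.81, -0.02 and -0.44. COX5A and COX5B, which bind the catalytic core on the matrix side, had means of 0.08 ± 0.51 and 0.22 ± 0.26. The widely expressed isoforms COX6A1, COX6B1 and COX8A had -0.20 ± 0.77, 0.32 ± 0.44 and 0.02 ± 0.41. Of the tissue isoforms, COX7A1, found in heart and muscle, had 0.00 ± 0.51. COX8B, the muscle-type form of subunit 8, had the widest spread of all subunits: its replicates were -0.10, 1.10 and 2.41, and the mean of 1.13 ± 1.25 did not pass an unadjusted p of 0.05.

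Complex V, ATP synthase, had 11 subunits (68.8%) below 0 and 5 above, and a median of -0.26. At an unadjusted p under 0.05 it had 3 lower (18.8%) and 1 higher (6.25%), where 6.46% and 8.00% of all tests were. The peripheral stalk, which holds the catalytic head still while the rotor turns, had a median of -0.48 over its 4 subunits. ATP5PF, the coupling-factor subunit of the stalk, had ratios of -1.69, -0.92 and -0.71 on slide 1 and -1.72, -0.94 and -0.69 on slide 2. The slides gave nearly the same value in each area, and area 1 was lowest on both. Its mean of -1.11 ± 0.53 was the lowest of all subunits, 46.2% of control (adjusted p = 0.237 in limma). ATP5PB, the long rod of the stalk, had replicates of -0.35, -0.26 and -0.32 (adjusted p = 0.225 in limma), with a slide 1 mean of -0.06 and a slide 2 mean of -0.56. ATP5PO, which ties the stalk to the head, had -0.62, -0.19 and -1.16 and was below 0 on all 6 arrays without passing an unadjusted p of 0.05. ATP5PD, the remaining stalk subunit, had 0.09 ± 0.10.

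DMAC2L, formerly ATP5S or coupling factor B, is related to an assembly factor of complex I and was taken in through its older symbol. Its replicates were -1.18, -0.48 and -0.56, with a mean of -0.74 ± 0.38 (adjusted p = 0.258 in limma), and its other probes gave -0.74 and -0.47. All 6 arrays were below 0, and area 1 was lowest on both slides, as for ATP5PF.

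In the catalytic head, ATP5F1D of the central stalk was above 0 on all 6 arrays, with replicates of 0.47, 0.85 and 0.34 and a mean of 0.56 ± 0.27 (adjusted p = 0.255 in limma). The head's other measured subunits were below 0. ATP5F1A and ATP5F1B, which form the catalytic ring, had -0.08 ± 0.05 and -0.26 ± 0.33, and ATP5F1C and ATP5F1E of the central stalk had -0.26 ± 0.19 and -0.37 ± 0.28. In the membrane part, the 3 genes for the same c-ring protein differed in direction: ATP5MC1 had 0.29 ± 0.65, ATP5MC2 -0.13 ± 0.83 and ATP5MC3 -0.38 ± 0.33. ATP5MF, a small subunit beside the ring, had replicates of 1.30, 0.75 and 0.14, and its other probes gave 0.75 and 0.67.

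Slide and dye orientation, which go together here, moved subunits, though a smaller share changed sign than over all tests. The slide means had opposite signs for 28 of 77 subunits, where 48.3% of all tests did. They did so for 15 of the 60 bright subunits, where 32.0% of bright tests did, again a smaller share. The slide 2 mean was above the slide 1 mean for 51 subunits, where 45.4% of all tests were, and for 39 of the 60 bright ones, where 48.0% of bright tests were. The median over subunits was -0.20 on slide 1 and -0.03 on slide 2, against 0 and -0.01 over all tests. The median size of a subunit's difference between slides was 0.388, and its value over all tests is not given here. For complex I the medians were -0.18 and 0.12, for complex IV -0.27 and 0.10, and for complex V -0.31 and -0.09. A direction for complex I or IV as a whole therefore flipped with the slide.

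**Figure D2:**
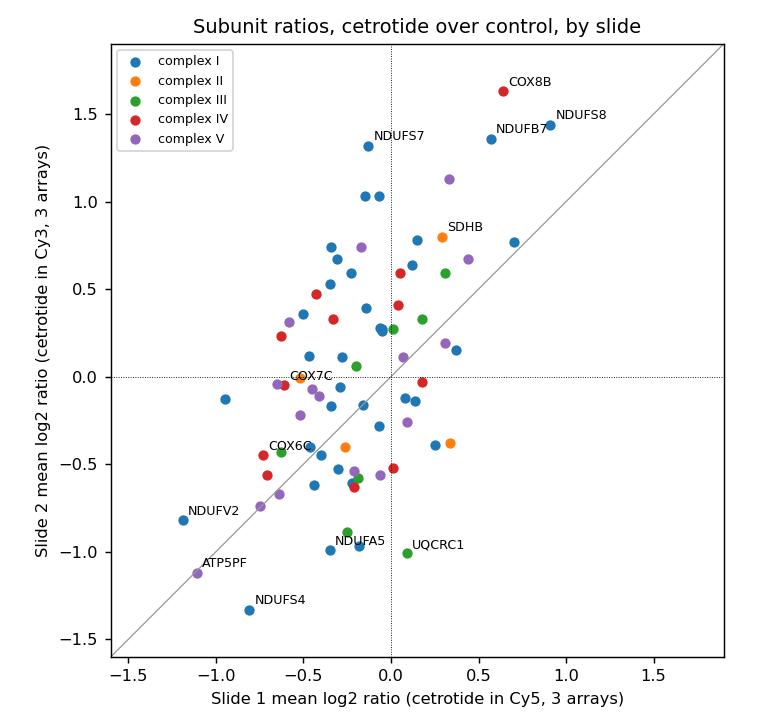
Mean log2 ratio over the 3 arrays of slide 1 (horizontal, cetrotide in Cy5) against that over the 3 arrays of slide 2 (vertical, cetrotide in Cy3) for each of the 77 subunits, coloured by complex. The 28 subunits with opposite signs on the slides lie in the upper left and lower right, among them NDUFS7 at -0.13 and 1.32.

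Over the subunits, replicate 3 had the lowest correlations with the other replicates. Over the 77 subunits the correlation of log2 ratios was 0.731 between replicates 1 and 2, 0.238 between 1 and 3 and 0.331 between 2 and 3. Over all tests the same correlations were 0.499, 0.417 and 0.256. These describe the libraries only, since subunits are not independent of one another. Replicate 3 alone was above 0 for 9 subunits (11.7%), where 16% of all tests were. NDUFS1, SDHD, UQCRC2, COX5A and ATP5F1B were among them. The same replicate alone was below 0 for 13 (16.9%), where 12% of all tests were, among them COX6A1, COX7A1, ATP5MC1 and ATP5MC2. With 1 share below and 1 above that of all tests, these counts do not set replicate 3 apart. Replicate 1 alone was above 0 for 2 subunits (2.6%) and below for 7 (9.09%), where 6.48% and 6.15% of all tests were. For replicate 2 the counts were 8 (10.4%) and 2 (2.6%), where 9.23% and 11.5% of all tests were. All 3 replicates were below 0 for 24 subunits (31.2%), where 20.4% of all tests were, and above 0 for 12 (15.6%), where 18.2% were.

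**Figure D3:**
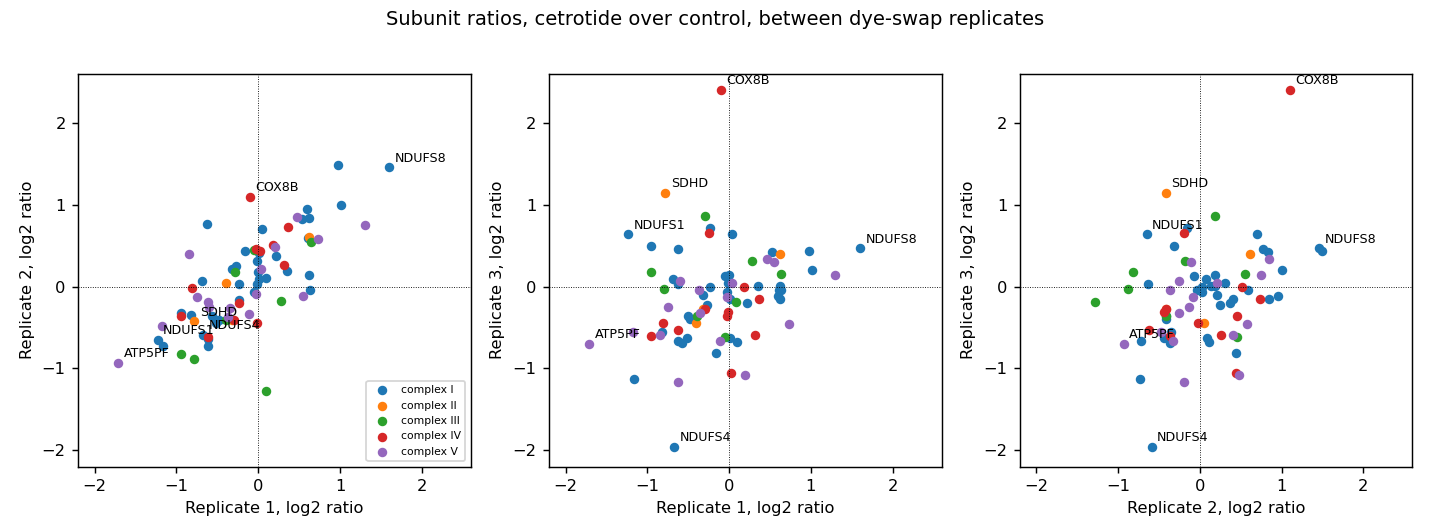
Log2 ratios of cetrotide over control of the 77 subunits in each pair of dye-swap replicates, with axes naming the replicates and colours the complexes. Points follow the diagonal for replicates 1 and 2 (correlation 0.731) and scatter widely against replicate 3 (0.238 and 0.331).

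Markers of cell types also differed between replicates. The median log2 ratio of 16 granulosa markers was -0.55, 0.20 and -1.31 in replicates 1 to 3, and the summed level of the list ranged from 46700 to 162000 in cetrotide RNA and from 125000 to 175000 in control RNA. The 8 measured epithelial markers were all above 0, with medians of 1.13, 1.59 and 3.25 and summed levels of 18900 to 216000 against 2620 to 33000. Among them KRT8, a keratin of simple epithelia, had 3.06 ± 1.25, and LTF, lactoferrin, 3.07 ± 0.49. CDH1, a defining epithelial marker, was not kept, since it passed the limit on 1 array in cetrotide RNA and on 3 in control RNA.

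The 11 measured leukocyte markers had medians of 0.85, -0.06 and 0.88 and summed levels of 5110 to 7160 against 2040 to 6210. The 10 theca and stroma markers had 1.27, 0.05 and 0.14 and summed levels of 23800 to 84100 against 9610 to 20300. The 9 endothelial markers had 0.99, 0.02 and 0.66, with summed levels of 1300 to 4120 against 1320 to 1770. Of these, EMCN and ENG were kept through cetrotide RNA only, above the limit on 4 and 5 arrays against 3 each in control RNA. The theca and stroma markers COL1A2 and CYP17A1 were likewise kept through cetrotide RNA, on 6 and 5 arrays against 3 each. The part of these genes in the medians and sums is thus no support for a difference. The defining endothelial marker PECAM1 was above the limit on 1 array in cetrotide RNA and on 0 in control RNA, and the leukocyte marker CSF1R on 0 of either. Of the oocyte markers 4 were measured, with summed levels of 531 to 613 against 552 to 576. All 4 had dim spots, with mean log2 intensities of 7 to 7.26. The oocyte markers ZP4 and ZAR1 were above the limit on 0 arrays of either RNA, and GDF9 on 0 in cetrotide RNA and 1 in control RNA. The subunit medians in the same replicates were -0.11, 0.03 and -0.13. The part of these cell types in the subunit ratios was not tested.

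More than 1 kept probe was available for 31 subunits, and the probes shared a sign for 21 and disagreed for 10, with a median spread between probes of 0.17. NDUFS8 had the widest spread at 1.19, since its second probe read -0.01 with dim spots (mean log2 intensity 7.03). UQCRC1 followed at 0.77, though its second probe was dim and kept through cetrotide RNA only. NDUFS3 had a spread of 0.61, NDUFS7 of 0.59 and COX7A2L of 0.57. The second probes of NDUFA5 and NDUFS4 read -0.63 and -1.23 and thus lay near the first.

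**Figure D4:**
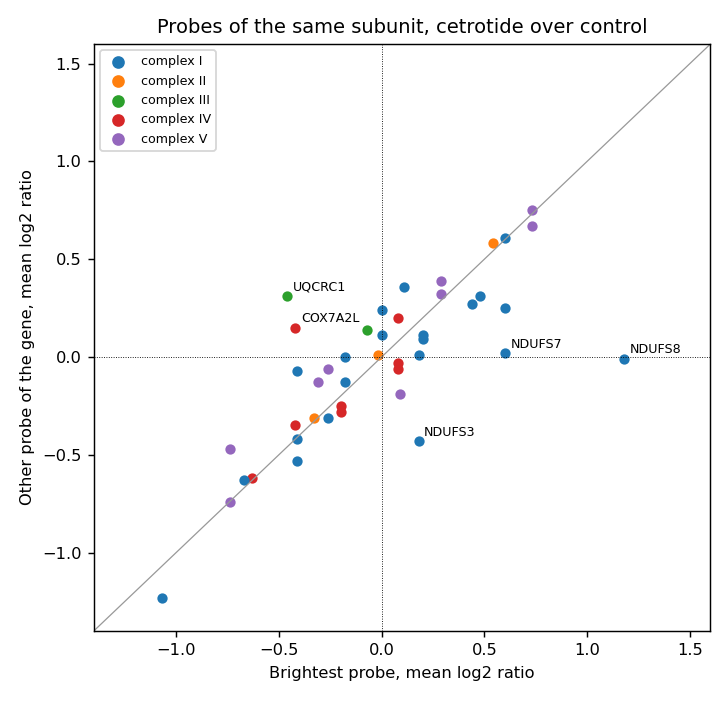
Mean log2 ratio of the brightest probe of a subunit (horizontal) against each of its other kept probes (vertical), for the 31 subunits with several kept probes, coloured by complex. Most points lie near the diagonal, and NDUFS8 lies farthest from it, at 1.18 and -0.01.

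Other nuclear genes of mitochondria were read from the same fit, in which none passed an adjusted p of 0.05. The counts below are to be read against the shares over the whole array, 6.46% lower and 8.00% higher, or 12.2% and 11.5% among bright tests, and all of these lists were described without a test. Subunits or partners outside the symbol rule were NDUFAB1, the acyl carrier protein in complex I, at -0.58 ± 0.44, COX4I1 at -0.22 ± 0.40, the carrier cytochrome c (CYCS) at 0.08 ± 0.39, and ATP5IF1, the inhibitor of ATP synthase, at -0.44 ± 0.22. At an unadjusted p under 0.05, 5 of 32 measured assembly factors were lower and 3 were higher, with a median of -0.06; the higher share, 9.38%, was near that of all tests. The factors with the lowest p were NDUFAF4 of complex I at -0.50 ± 0.09, and the complex IV factors SCO2, a copper chaperone, at 0.54 ± 0.19 and COX10, which makes haem for the enzyme, at 0.37 ± 0.11. The slide means of COX10 were 0.07 and 0.67.

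Among 15 regulators of mitochondrial genes and DNA 3 were lower and 0 higher. These were SSBP1, which binds single-stranded mitochondrial DNA, at -1.03 ± 0.24, LRPPRC, which stabilises mitochondrial mRNA, at -0.75 ± 0.27, and TFAM, the packaging and transcription factor of mitochondrial DNA, at -0.34 ± 0.12. TFAM was dim and was kept through its control RNA, above the limit on 6 arrays, since its cetrotide RNA was above it on 3, so its count among the lower genes is no support. Of 15 genes of the citric acid cycle and pyruvate dehydrogenase 0 were lower and 1 was higher, OGDH of the oxoglutarate dehydrogenase complex, at 0.87 ± 0.38. DLD, shared by the pyruvate and oxoglutarate complexes, had -0.83 ± 0.61 and MDH2, malate dehydrogenase, -0.54 ± 0.40, neither past that p.

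The protein import machinery had 6 lower and 1 higher of 18, which is 33.3% and 5.56%, and 15 of 18 below 0, where 53.2% of all tests were. Its median was -0.22. The outer-membrane translocase subunit TOMM5 had -1.16 ± 0.32, the inner-membrane subunit TIMM21 -0.58 ± 0.13 and the intermembrane chaperone TIMM9 -1.18 ± 0.46. Of 74 mitochondrial ribosomal proteins 19 (25.7%) were lower and 9 (12.2%) higher, with a median of -0.19. MRPL39 had -0.75 ± 0.08, MRPL18 -0.75 ± 0.17 and MRPL49 0.69 ± 0.15. The difference of MRPL49 lay on slide 2, with a slide mean of 1.43 there and of -0.05 on slide 1.

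The 63 measured cytosolic ribosomal proteins, which are also abundant transcripts, had 4 lower (6.35%) and 0 higher and a median of 0.02. Of these 36 had a mean spot intensity over 30000 on at least 1 array, near the top of the range, where ratios may be too small; its part in the median was not tested. Their replicate medians were 0.27, 0.09 and -0.36, whereas those of the mitochondrial ribosomal proteins were -0.10, -0.15 and -0.18. The lowest p among the cytosolic ones belonged to RPS26 at -0.63 ± 0.13, RPS13 at -0.44 ± 0.05 and RPS3A at -0.53 ± 0.26. The last pair passed that intensity in control RNA on all 6 arrays. Their differences lay on slide 2, with slide 1 and slide 2 means of 0.17 and -1.04 for RPS13 and of -0.07 and -1 for RPS3A. No test of a difference between lists was made.

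**Figure D5:**
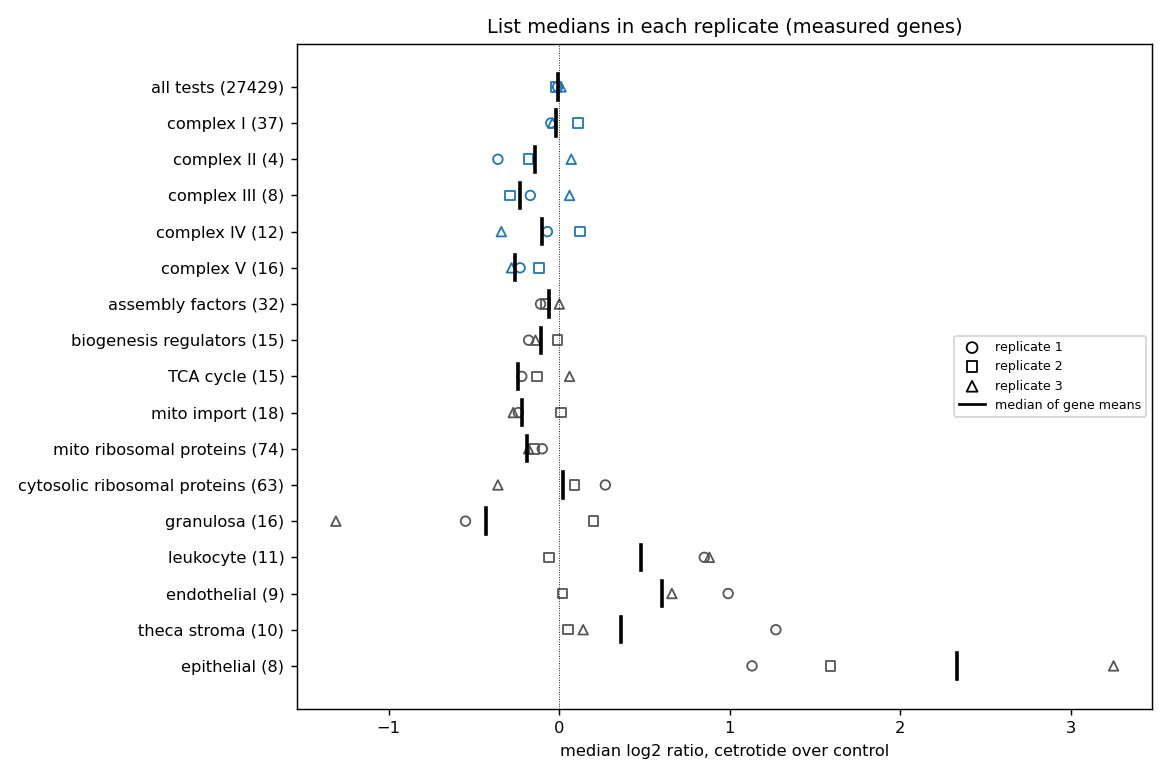
Median log2 ratio of cetrotide over control for all tests, each complex and the other lists (horizontal axis), with the number of measured genes in brackets; open symbols are the medians in the 3 dye-swap replicates and the vertical tick the median of the gene means. The replicate medians of complex I lie between -0.05 and 0.11, while those of the epithelial markers lie between 1.13 and 3.25.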

How the data were processed

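Per the labels' protocols, RNA was isolated with a kit made for minute samples, amplified by T7 transcription and labelled chemically. The deposited scanner tables hold spot intensity per channel, with no normalization recorded. For the scanner and its software, the sources used here name nothing. The authors also deposited processed log ratios, read here as log2: per array their slope on the cetrotide over control log2 ratio of the scanner values was 0.828 to 0.930 and the correlation 0.918 to 0.972, so their direction was taken as cetrotide over control. Their column medians were -0.00191, -0.000108, 0.000134, 0.00229, 0.00214 and 0.00748, and the steps behind their centring and normalization remain unknown. They served as an alternative.

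Intensities were background corrected (normexp, offset 50) and normalized within arrays by loess with limma 3.58.1 in R 4.3.3. Each of 45220 spots per array was read, with 14 summary lines left out. Of 43794 gene probes 31769 were kept, and 21790 had 1 symbol and 22004 none. Symbols of 1524 probes were updated through RefSeq's genes of the assembly ARS-UCD2.0. A gene was represented by its brightest kept probe, giving 12389 named genes and 15040 unnamed probes in the fit (lmFit with an intercept on 3 replicates, eBayes, Benjamini-Hochberg). The offset pulls ratios of dim probes towards 0. The number of arrays limits the precision.

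That the area number pairs the slides was checked from the data: between slides, deviations from the slide means had correlations of 0.900, 0.934 and 0.954 where the area was shared and of -0.706 to -0.00759 elsewhere. The labels do not tie areas to cows, and p-values cover only the spread among these replicates, which may be technical.

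The members, gene lists and markers were chosen with earlier results of these data known. Named genes are up to 4 subunits per complex by p, the core subunits, the tissue isoforms and up to 3 genes per other list by p. NDUFA6, NDUFB5, NDUFB7, NDUFC1, NDUFS4, NDUFS5, COX8B, ATP5PO, ATP5PD, ATP5F1E, the bright subunits, ATP5MF, KRT8 and the genes named for replicate 3 or for marker detection were named after their values were seen. Sequences were not used here.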

Additional observations from a re-analysis of the deposited data

How the results depend on the processing

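The counts of 16 lower and 7 higher subunits, the 0 that passed an adjusted p of 0.05 and the median of -0.08 were recomputed under each alternative. Dropping the background subtraction, an offset of 16, median pixels, Aquantile, other filters, the mean over probes and the authors' deposited log2 ratios kept both counts within 1.5 times. Leaving out probes near the top of the scanner range, chosen after seeing the data, left 75 subunits with 16 lower and 7 higher. Median centring without loess gave 20 lower and 3 higher, where 6.37% and 7.2% of all tests were, and a median of -0.24. With the replicate block, on 6 arrays with a dye term, 23 were lower and 11 higher, where 8.94% and 10.5% of all tests were. In that fit 6 passed an adjusted p of 0.05 in limma, against 2.46% of all tests, and the consensus correlation was 0.852. Slide 1 alone gave 16 lower and 4 higher, where 8.09% and 7.61% of all tests were, and a median of -0.20. Slide 2 alone gave 22 lower and 17 higher, where 13.7% and 15% of all tests were. There 4 subunits passed the adjusted p, 2 lower and 2 higher, where 3.23% of all tests did. Dye effects were left in for either slide. Leaving out each replicate gave 7 to 21 lower, 3 to 14 higher and medians of -0.20 to -0.02. Without replicate 1, 7 were lower and 5 higher, where 2.77% and 4.27% of all tests were. Without replicate 2 the counts were 16 and 3 (6.04% and 6.93% of all tests). Without replicate 3 they were 21 and 14 (6.43% and 11%). Among subunits with an unadjusted p under 0.05 the sign changed for 0 in every alternative except slide 1 alone, where it changed for 1, NDUFS7; over all 77 it changed for 19 on slide 1 alone, 12 without replicate 3, 9 on slide 2 alone, 7 without replicate 1, 6 without loess and at most 4 elsewhere. The cause of these moves was not tested; settings that leave out a slide or replicate use fewer arrays. Dim spots limit UQCRH, UQCRC1, NDUFA4L2, NDUFV1 and ATP5F1D, whose ratios the offset pulls towards 0.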
